A study of Mus musculus with 2 samples.

Results

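Mural cells were picked out by their marker counts in 2 MERFISH sections of the embryonic mouse head. A segmented cell was called mural when it held at least 20 transcripts of the panel, at least 3 counts of Kcnj8, Abcc9, Pdgfrb and Acta2 together making up at least 3% of its transcripts, at least 2 of these 4 genes, and more counts of them than of the endothelial genes Cldn5, Flt1 and Adgrf5 together. This rule took 715 cells of the control section and 2540 cells of the KO section, 3255 of 218537 segmented cells in all. Because these 7 genes chose the cells, their levels against other cells are a description and not a result.

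Mural cells wrap the endothelial tube of blood vessels. Pericytes lie on capillaries within the basement membrane, and smooth muscle cells surround arteries and arterioles. In the developing brain pericytes are recruited by PDGF-B from the endothelium acting on PDGFRB, and they take part in forming the blood-brain barrier. Kcnj8 and Abcc9 encode the pore and the sulfonylurea receptor subunit of an ATP-sensitive potassium channel of pericytes and smooth muscle, and Acta2 encodes smooth muscle actin, which embryonic skeletal muscle can also carry.

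Both sections came from embryos at E16.5, 1 section per group, cut coronally at 10 µm from flash-frozen heads and imaged with Vizgen's Pan Neuro panel on a MERSCOPE instrument. The control carried Sst-Cre, which is active in somatostatin-expressing cells, and the tdTomato reporter. The KO carried the same Sst-Cre and tdTomato with floxed Dnmt1 (Sst-Cre/tdTomato/Dnmt1 loxP2), so the DNA methyltransferase gene is removed only where Sst-Cre has been active. The strains are on a C57BL/6 J background, and the sex of the embryos was not distinguished. The sections address how tissue composition and expression compare when Sst-lineage interneurons lack Dnmt1, and mural cells are among the cells that do not carry the deletion by design. With 1 section per genotype there is no replicate check, and genotype, embryo, section plane and imaging run cannot be told apart. All intervals below are 95% intervals and cover counting error only.

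The sections differed in depth. The control section held 2842355 panel transcripts in 108533 cells, with a median of 20 per cell, and the KO section 13437174 in 110004 cells, with a median of 101. In the control 50.9% of cells reached the minimum of 20 transcripts, against 92.0% in the KO. Blank codes, which match no gene, made up 0.410% of all decoded counts in control mural cells and 0.506% in KO mural cells. No cell identifier was shared by the sections. Dnmt1 is not on the panel, so the deletion itself was not measured. A Sst transcript lay in 3 of 188 mural cells of the control neural tissue and in 36 of 727 of the KO neural tissue (1.596% and 4.95%), against 3.40% and 6.52% of the other cells there. The exact 95% intervals of the mural shares, 0.330 to 4.59% and 3.49 to 6.79%, include the shares of the other cells, and segmented outlines can take in transcripts of a neighbour.

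Most of the cells taken by the rule lay outside the neural tissue. Each section was divided by smoothed transcript density into mesenchyme-rich tissue, where fibroblast and matrix genes outnumbered pallial, subpallial and Slc17a6 transcripts together, and all remaining tissue, called neural. Some bins at the outer rim of the head fell into the neural class as well. Mesenchyme-rich tissue formed most of the rim and islands inside the section, and held 527 control and 1813 KO mural-rule cells. That was 73.7% (70.3 to 76.9%) and 71.4% (69.6 to 73.1%) of them, whereas 22.3% and 18.8% of all cells over the minimum lay there. Neural tissue held the remaining 188 control and 727 KO cells, of which 68 and 189 lay in its pallium-rich places. Mural-rule cells made up 4.27% of cells over the minimum in control mesenchyme-rich tissue and 0.438% in control neural tissue, and 9.52% and 0.884% in the KO.

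**Figure D1:**
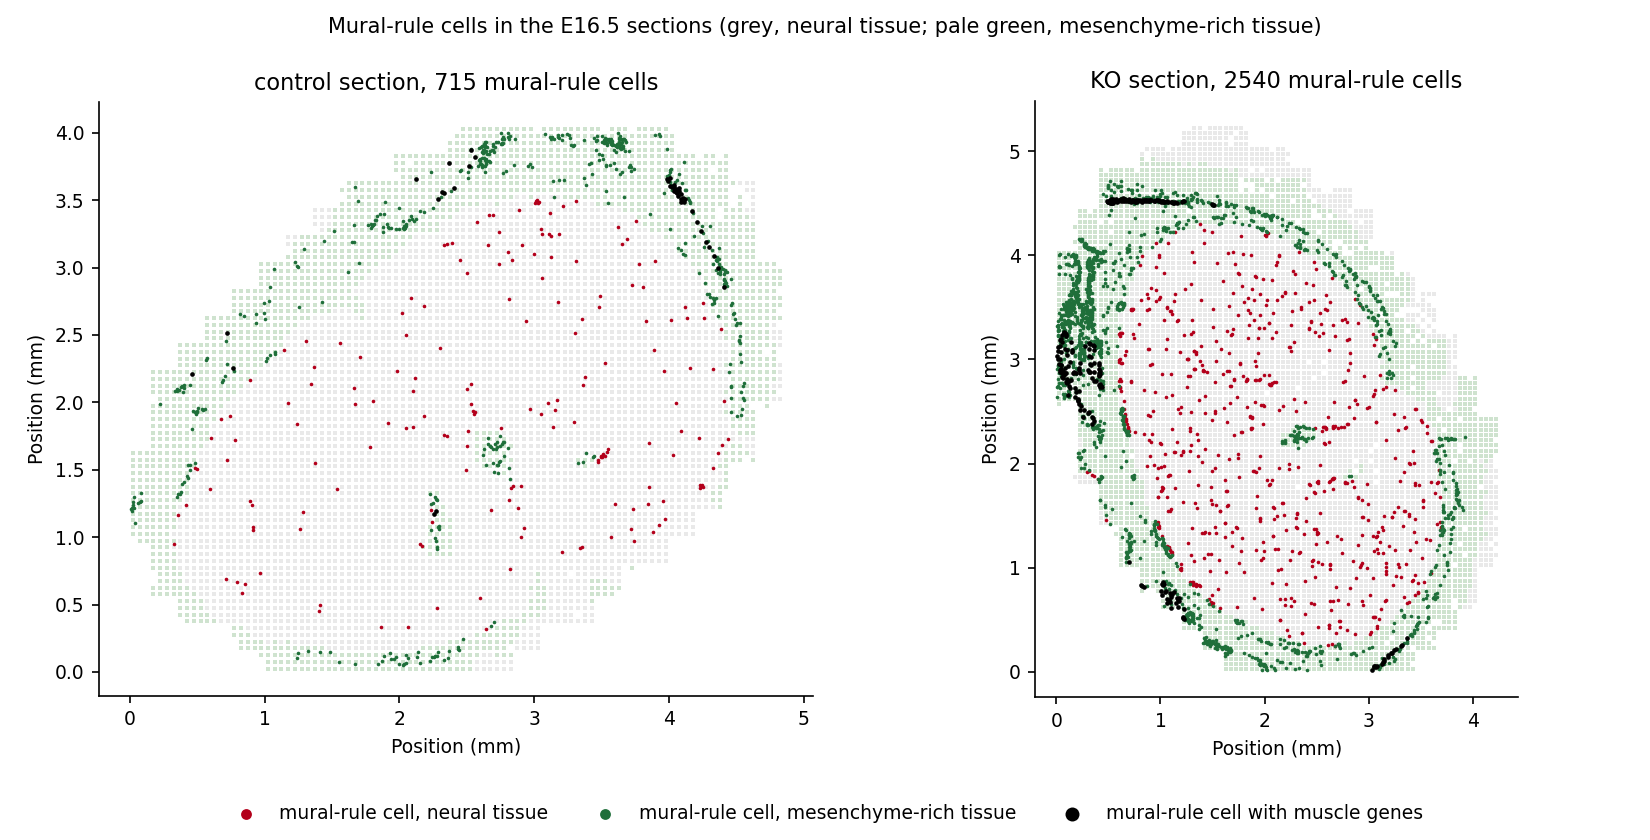
Positions of the mural-rule cells in the control section (left) and the KO section (right), both axes in mm from the section's corner. Grey squares are neural tissue and pale green squares mesenchyme-rich tissue; dots are the 715 and 2540 mural-rule cells, coloured by tissue, with cells rich in skeletal muscle genes in black. In neural tissue the cells are scattered over the section, and in mesenchyme-rich tissue they form bands and patches.

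In neural tissue the cells were mostly chosen through Kcnj8, Abcc9 and Pdgfrb. A cell could pass without both channel genes only with Pdgfrb and Acta2 together, so a high share with either is set by the rule. Kcnj8 or Abcc9 was present in 179 of 188 control cells (95.2%) and in 706 of 727 KO cells (97.1%), and both were present in 62.8% and 71.1%. Pdgfrb, the PDGF-B receptor, was present in 72.3% of control and 88.6% of KO cells. Acta2 was found in 18.1% and 13.3%. Of the 4 genes, 99 of 188 control cells (52.7%) and 247 of 727 KO cells (33.98%) had only 2. As summed levels in CPM (counts of a gene per 1e+06 panel transcripts), control neural mural cells held 28622 CPM of Kcnj8, 28511 of Abcc9, 25960 of Pdgfrb and 14866 of Acta2. KO neural mural cells held 12011 CPM of Kcnj8, 39879 of Abcc9, 21195 of Pdgfrb and 9223 of Acta2. These 4 genes together made up 9.80% of transcripts in control and 8.23% in KO neural mural cells. No mural-rule cell of neural tissue passed the limits on skeletal muscle genes described below, 0 of 188 and 0 of 727, with exact 95% intervals that reach up to 1.94% and 0.506%.

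In mesenchyme-rich tissue the label held for only part of the cells. Acta2 was present in 57.3% of control and 68.6% of KO cells there, and its level of 24667 and 30470 CPM was higher than in neural mural cells of the same section. Kcnj8 was lower than in neural tissue, at 13430 and 5654 CPM. Among these cells, 43 of 527 in the control (8.16%; 5.97 to 10.8%) and 243 of 1813 in the KO (13.4%; 11.9 to 15.1%) held at least 3 counts and 3% of transcripts of the skeletal muscle genes Myh8, Ttn, Tcap and Sln, a list added after the sections had been seen. Myh8, a myosin heavy chain of developing skeletal muscle, reached 106514 and 79915 CPM in these muscle-gene cells, and Acta2 44343 and 47470 CPM. Their Kcnj8 was 1143 and 1906 CPM and their Pdgfrb 4800 and 2018 CPM, far below the 15059 and 6353 CPM of Kcnj8 and the 20119 and 12556 CPM of Pdgfrb in the remaining mesenchyme-rich cells. On the map most of these cells lie in strips and patches near the outer border of the section. Of the other mesenchyme-rich cells over the minimum, 3.41% and 4.42% passed the same muscle-gene limits. For this reason the cells are called mural-rule cells where all of them are meant.

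**Figure D2:**
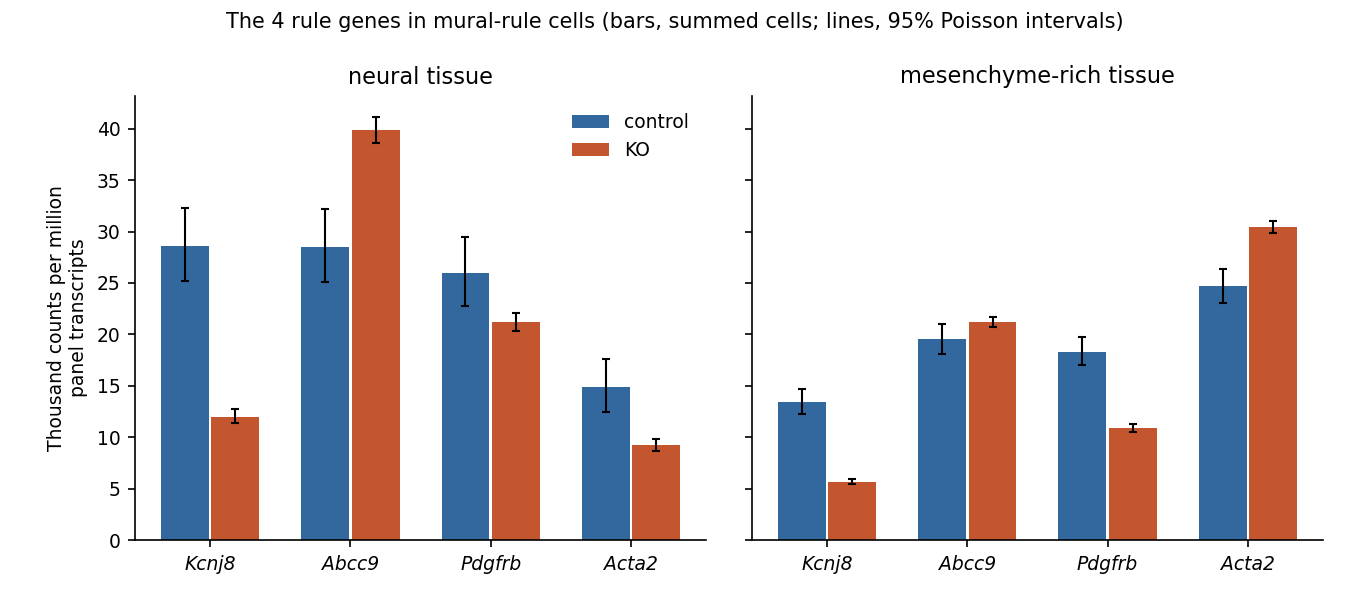
Levels of the 4 rule genes, on the vertical axis in units of 1000 CPM, summed over mural-rule cells of neural tissue (left) and mesenchyme-rich tissue (right); bars are the control (blue) and KO (orange) sections and lines 95% Poisson intervals. Kcnj8 stood lower in the KO in both tissues, and Acta2 stood lower in KO neural tissue and higher in KO mesenchyme-rich tissue, although the neural ratio of Acta2's share of the 4 genes had an interval spanning 0, with a point value above it, where the rule left out Acta2 or asked for 3 genes.

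Single neural mural cells were sampled thinly. In the control they held between 20 and 150 transcripts with a median of 43, and between 3 and 17 counts of the rule genes with a median of 4. In the KO the range was 21 to 569 transcripts with a median of 123, and 3 to 54 rule-gene counts with a median of 9. The rule worked at its lower edge in the control: 247 of all 715 control cells, against 188 of 2540 KO cells, were admitted with exactly 3 counts. A further 304 control cells failed only because the sum was 2. The 3% limit acted in the other direction, leaving out 87 control and 1914 KO cells that met every other condition. The endothelial condition alone left out 99 and 614 cells.

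Beyond the rule genes, mural-rule cells of whole sections had 48 genes more than 2-fold above other cells in both sections (19.8% of 243) and 62 more than 2-fold below (25.5%). Whole sections mix the tissues, so the comparison was made within each, an addition made after the data had been seen. The levels were compared with all other cells over the minimum in neural tissue of the same section, over the 243 genes outside the rule that reached the median level in these cells. Of these, 48 were more than 2-fold higher in mural cells in both sections (19.8%) and 52 more than 2-fold lower (21.4%). Cspg4, the NG2 proteoglycan used to mark pericytes, stood first, with 21855 CPM against 888 in other control cells and 11556 against 396 in the KO, 24.6-fold and 29.2-fold higher. S1pr3, a receptor for sphingosine 1-phosphate, was 14.96-fold and 19.8-fold higher, at 9541 and 9797 CPM. Atp13a5, a transporting ATPase that marks brain pericytes, was 8.79-fold and 12.4-fold higher, but rested on 6 control and 86 KO counts.

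Igf2, an imprinted growth factor gene of embryonic mesenchyme and vessels, stood at 86532 CPM in control and 85363 CPM in KO neural mural cells, 13.6-fold and 22.8-fold over other cells. Ccdc3 was 19.3-fold and 16.46-fold higher, Cobll1 13.0-fold and 15.4-fold, Plekhg3 11.7-fold and 16.4-fold, and Daam2, a formin of the Wnt pathway, 10.96-fold and 9.66-fold. Unc5b, a netrin receptor, was 8.36-fold and 8.54-fold higher and Dcn, encoding the matrix proteoglycan decorin, 6.75-fold and 9.63-fold. Of the 10 neuronal genes on the panel, 5 were more than 2-fold lower in both sections, beside 21.4% of all genes compared, and 0 more than 2-fold higher. Fezf2, a transcription factor of deep-layer projection neurons, stood at 0.27 and 0.19 of the level in other cells, and Slc17a7, a vesicular glutamate transporter, at 0.19 and 0.39.

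Mural cells were also compared with endothelial-rule cells, the other cells of the vessel wall. These were called in the same way from Cldn5, Flt1 and Adgrf5, and numbered 365 in control and 1714 in KO neural tissue. Counted against neural cells that were neither mural nor endothelial, 49 of the 243 genes were more than 2-fold higher in mural cells in both sections. Of these 49, 12 were also more than 2-fold higher in mural than in endothelial-rule cells in both sections, beside 13 of all 243 genes. They were Cspg4, Parm1, Atp13a5, Ngfr, S1pr3, Ccdc3, Ccdc80, Plekhg3, Thbs2, Col14a1, Daam2 and Rgs4. Cspg4 was at 4236 and 2825 CPM in endothelial-rule cells, and Parm1 at 2508 and 1826 CPM against 8099 and 6337 CPM in mural cells. In the neural mural cells without Acta2, Parm1 was at only 3904 and 2471 CPM. Aplnr, the apelin receptor of growing vessels, Klf4 and Nr4a1 ran the other way and were more than 2-fold higher in endothelial-rule cells. Aplnr was at 3772 and 3243 CPM in mural and 15605 and 14807 CPM in endothelial-rule cells. Igf2 was higher in mural cells, against 48041 and 42445 CPM in endothelial-rule cells.

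Neural mural cells also held transcripts of the endothelium itself. Cldn5, the tight junction claudin of brain endothelium, was at 17750 CPM in control and 20819 CPM in KO mural cells, against 112690 and 96783 CPM in endothelial-rule cells and 2363 and 862 CPM in the rest. Flt1, a VEGF receptor, was at 3106 and 4893 CPM in mural cells against 23519 and 13894 CPM in endothelial-rule cells. The rule allows such counts as long as they stay below the mural ones. In mural cells less than 20 µm from an endothelial-rule cell Cldn5 was at 22997 CPM in the control and 20542 CPM in the KO, and in those farther away at 15407 and 21331 CPM. The part of transcripts assigned across cell outlines in these levels was not tested.

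**Figure D3:**
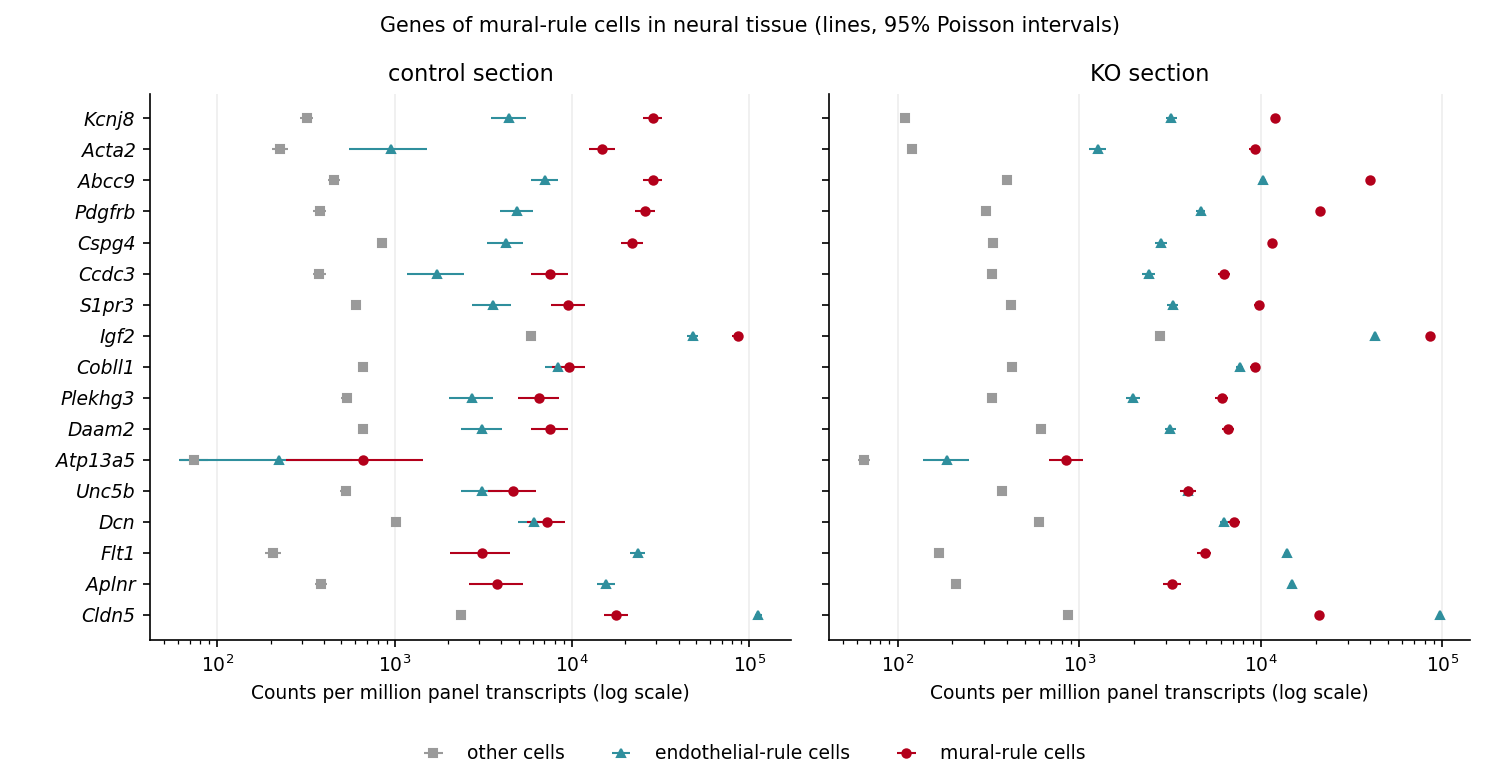
Levels in CPM (horizontal axis, log scale) of the 15 genes with the highest fold over other cells, rule genes included, and of Aplnr and Cldn5, in neural tissue of the control (left) and KO (right) sections. Red circles are mural-rule cells, blue-green triangles endothelial-rule cells and grey squares all remaining cells over the minimum, with 95% Poisson intervals; Cspg4 lies highest in mural-rule cells and Aplnr in endothelial-rule cells in both sections, while the orders of the 4 mural rule genes, Cldn5 and Flt1 are set by the rules.

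The lists drawn up for mural biology were only partly on the panel. Of 22 mural genes outside the rule, 4 were measured: Cspg4 and Atp13a5 were more than 2-fold higher in neural mural cells of both sections, whereas Ebf1 was at 0.83 and 1.10 and Igfbp5 at 1.24 and 1.03 of the level in other cells. Ebf1 is also a gene of striatal neurons, which lie in the same tissue. Of the 26 vessel signalling genes 7 were measured, 6 of them outside the rule. Of those 6, S1pr3, Pdgfra and Cxcl12 passed 2-fold upward in both sections, and Wnt7b, a Wnt ligand of neural cells that acts on brain endothelium, passed it downward at 0.37 and 0.46. Cxcl12, a chemokine, was 7.78-fold and 4.45-fold higher, and Pdgfra, the receptor of fibroblasts and oligodendrocyte precursors, 2.91-fold and 2.66-fold. Of 13 vasoactive receptors on the panel, 2 were more than 2-fold higher in both sections and 2 more than 2-fold lower, beside 19.8% and 21.4% of all genes compared, and 7 of the 13 reached the median level. The higher ones were Aplnr and the adenosine receptor gene Adora2a, at 6.84-fold and 5.66-fold and at 2.95-fold and 3.62-fold. Adora2a is at the same time a gene of striatal neurons. The lower ones were the opioid receptor gene Oprm1, at 0.36 and 0.47, and the adrenergic receptor gene Adrb1, with 0 control and 11 KO counts, both below the median level. Ednrb, an endothelin receptor, was at 0.53 and 0.74, and Adra2a, an adrenergic receptor, at 1.96 and 2.43.

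Fibroblast genes were present as well. The 9 fibroblast genes on the panel made up 1.91% of transcripts in control and 1.47% in KO neural mural cells, against 0.369% and 0.313% in the cells that were neither mural nor endothelial, and 1.53% and 1.46% in endothelial-rule cells. Of these 9 genes, 7 were more than 2-fold higher than in other neural cells in both sections, beside 19.8% of all genes compared. Of the 9, 6 reached the median level used for that share, and Efemp1, with 2 control counts, was called below it. Within 100 µm of mesenchyme-rich tissue lay 28.7% of control and 22.8% of KO neural mural cells. Endothelial-rule cells had 28.5% and 24.9% there, and cells that were neither had 11.2% and 10.9%. The part of this placement in the fibroblast shares was not tested. The 10 neuronal genes on the panel made up 3.25% and 4.57% of transcripts in neural mural cells. They made up 9.61% and 11.4% in the remaining cells and 3.15% and 4.34% in endothelial-rule cells. The 4 microglial genes made up 0.311% and 0.407% in neural mural cells. They made up 0.174% and 0.121% in the remaining cells and 0.334% and 0.400% in endothelial-rule cells. Neural mural cells had a median volume 1.24 times that of other neural cells in the control and 1.15 times in the KO, and 0.832 and 0.768 of their DAPI signal per volume. No caller of doublets was run, and the part of merged outlines in these shares was not tested.

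In mesenchyme-rich tissue the mural-rule cells stood out little from their surroundings. Of 243 genes, 12 were more than 2-fold higher in both sections (4.94%) and 13 more than 2-fold lower (5.35%). Parm1 was 4.17-fold and 3.80-fold higher, Trpc6, a cation channel of smooth muscle, 3.77-fold and 4.37-fold, and Adra2a 2.76-fold and 2.45-fold. Trpc6 was seen in only 3.23% of control and 14.2% of KO mural-rule cells here, against 0.690% and 3.09% of other cells. Also among the 12 were Ngfr, Myh8, Cckar, Cpne4, Chst1, Cobll1, Arhgap36, Ttn and Bdnf. Without the cells rich in muscle genes 14 genes passed. Myh8, Ttn, Arhgap36 and Cckar were no longer among them, and Avpr1a, Nrp1, Nr2f2, Ebf1, Adora2a and Kcng1 were added. Such cells were taken out of the mural-rule cells and not out of the other cells, so the loss of Myh8 and Ttn is set by this choice. Arhgap36 was at 333 and 763 CPM in place of 3237 and 6053 CPM. Cspg4, so marked in neural tissue, was 1.54-fold and 1.42-fold higher here, and Igfbp5 stood at 0.58 and 0.54 of its level in other cells. Fibroblast genes made up 9.06% and 11.5% of transcripts, slightly below the 10.4% and 12.6% of the surrounding cells. Efemp1, a gene of meningeal and other fibroblasts, was 1.04-fold higher in the control and 2.27-fold higher in the KO.

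The few neural mural cells led by Acta2 differed from the others in their place and genes. Acta2 had the highest count of the 4 genes in 22 of 188 control and 62 of 727 KO neural cells. Of these, 13 of 22 (59.1%; 36.4 to 79.3%) and 55 of 62 (88.7%; 78.1 to 95.3%) lay within 100 µm of mesenchyme-rich tissue, against 24.7% and 15.1% of the 154 and 630 neural mural cells without Acta2. Their Dcn was at 20635 and 27929 CPM against 4601 and 3488 CPM in cells without Acta2, and their Parm1 at 26190 and 33997 CPM against 3904 and 2471 CPM. Myh8 was at 1587 CPM in the control cells led by Acta2, on 2 counts, and had 0 counts in the KO ones. Their Kcnj8 was at 8730 and 3212 CPM, against 33459 and 13266 CPM where Acta2 was absent, which follows in part from choosing cells by Acta2.

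Neural mural cells lay next to endothelial cells more often than other cells did. In the control 56 of 188 (29.8%; 23.4 to 36.9%) had an endothelial-rule cell centred less than 20 µm away, against 4.23% of other neural cells. In the KO 471 of 727 (64.8%; 61.2 to 68.3%) did, against 13.2%. The control log2 ratio over other cells had an interval spanning 0 where the rule asked for 3 genes (1.85, -1.36 to 3.84). So did that in imaging plane 0 (3.26, -0.17 to 5.32). The median distance to the nearest endothelial-rule cell was 51.2 µm for mural and 82.7 µm for other cells in the control, and 13.6 and 43.3 µm in the KO. The distances depend on how many endothelial cells reached the rule, 37.3 per mm2 in control and 180 per mm2 in KO neural tissue, so the sections are not compared with each other. In pallium-rich places 39.7% and 67.7% of mural cells had such a neighbour, and in the rest of the neural tissue 24.2% and 63.8%. Other cells also differed between these places. The mural share was 6.79 and 4.51 times that of other cells in pallium-rich places, and 6.79 and 5.07 times in the rest. The ratio over other cells was therefore not higher in pallium-rich places.

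Single molecules, which need no call of endothelial cells, were counted as well. Within 15 µm of a neural mural cell's centre, molecules of Cldn5 that belonged to another cell or to none numbered 4.30 on average in the control and 18.2 in the KO, against 0.525 and 2.07 around other cells. The ratio was 8.19 and 8.81, and for Aplnr it was 7.33 and 7.60, for Flt1 9.36 and 7.94 and for Adgrf5 3.58 and 5.80. Outside molecules of each mural rule gene were fewer there than those of Cldn5, but they too were more frequent than around other cells. The ratio was 7.85 and 8.66 for Kcnj8, 7.28 and 7.75 for Abcc9, 8.11 and 7.63 for Pdgfrb and 25.5 and 23.4 for Acta2. These ratios therefore do not single out endothelial molecules. At least 1 such Cldn5 molecule lay by 81.4% of control and 95.2% of KO neural mural cells, against 15.2% and 24.1% of other cells. In mesenchyme-rich tissue the closeness was smaller: 19.7% and 30.9% of mural-rule cells were less than 20 µm from an endothelial-rule cell, against 6.74% and 17.5% of other cells, and the ratio of nearby Cldn5 molecules was 2.18 and 2.47. There 57.3% and 74.5% of mural-rule cells lay less than 20 µm from the next one, against 13.3% and 42.8% in neural tissue. Of other cells, 13.9% and 27.9% lay that near a mural-rule cell in mesenchyme-rich tissue, and 2.35% and 6.88% in neural tissue. Mural-rule cells were also denser in mesenchyme-rich tissue, at 132 and 367 per mm2 against 19.2 and 76.3 per mm2.

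**Figure D4:**
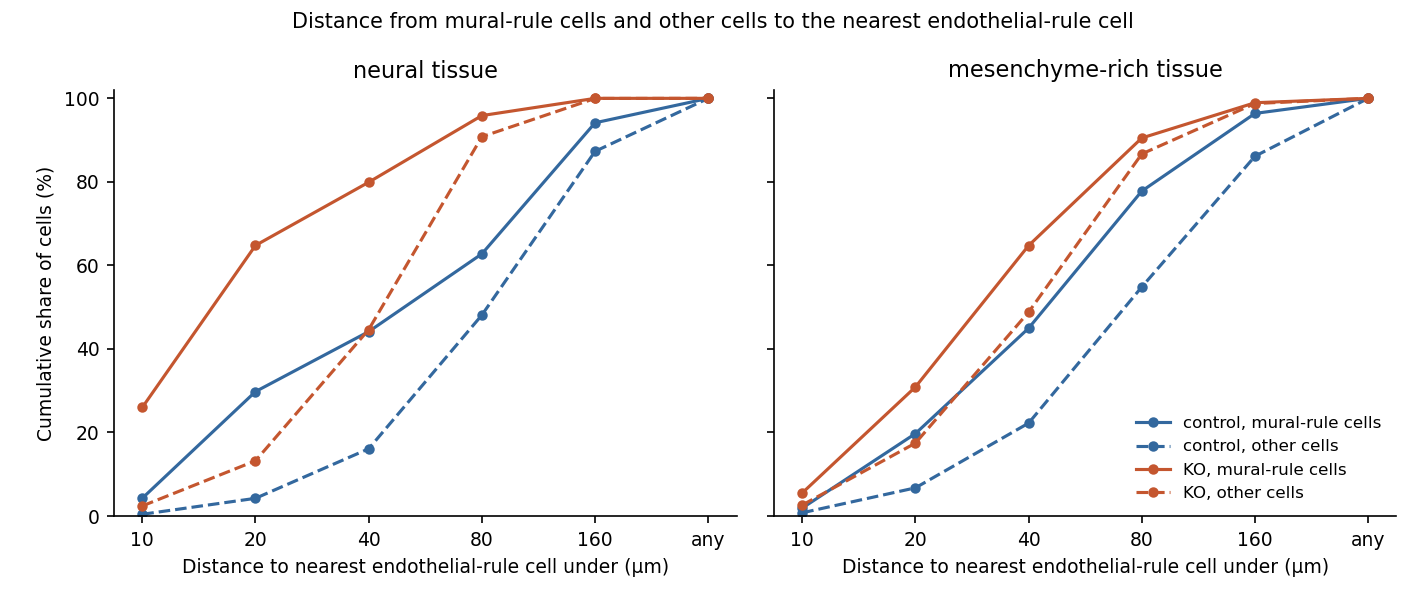
Cumulative share of cells (vertical axis, %) with an endothelial-rule cell nearer than the distance on the horizontal axis, in µm, for mural-rule cells (solid lines) and other cells (dashed lines) of the control (blue) and KO (orange) sections. In neural tissue (left) the solid lines run above the dashed ones at every distance up to 80 µm, with 29.8% against 4.23% at 20 µm in the control and 64.8% against 13.2% in the KO; in mesenchyme-rich tissue (right) the gap is smaller.

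Comparing the genotypes, mural-rule cells were a larger share of the cells over the minimum in the KO, 2.51% (2.41 to 2.61%) against 1.29% (1.20 to 1.39%), and the shares lay closer together at equal depth. When every cell was thinned to 25 transcripts before the rule was applied, leaving out 64649 and 10432 shallower cells, the rule took 243 of 43884 cells in the control (0.554%; 0.486 to 0.628%) and 581 of 99572 in the KO (0.583%; 0.537 to 0.633%). In neural tissue alone the thinned shares were 0.258% (0.206 to 0.319%) and 0.309% (0.272 to 0.350%), and in mesenchyme-rich tissue 1.44% (1.23 to 1.68%) and 1.77% (1.58 to 1.96%). These are shares of the cells deep enough to be thinned, not numbers of mural cells, and the difference between the sections was not tested. With a minimum of 50 transcripts in place of 20 the log2 ratio of KO over control was -0.17 with an interval that spans 0 (-0.36 to 0.03), in place of 0.95 (0.79 to 1.12).

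**Figure D5:**
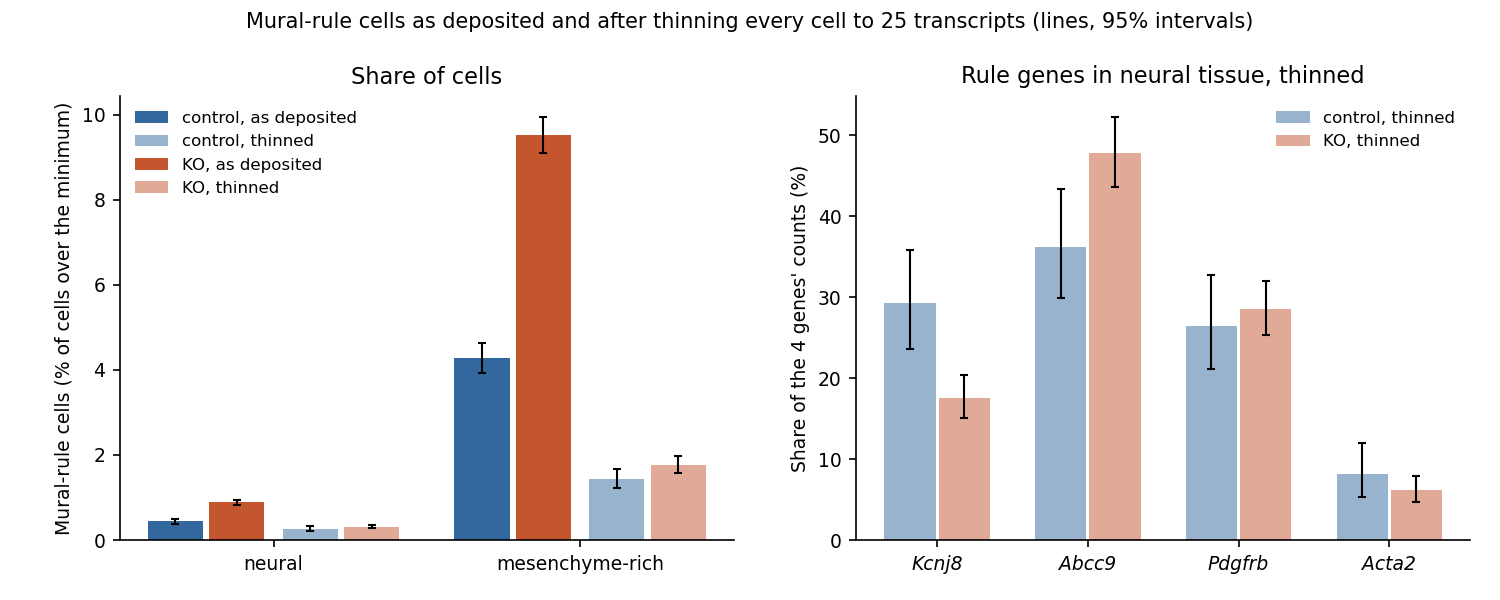
Left, share of mural-rule cells among cells over the minimum (vertical axis, %) by tissue, as deposited (full colour) and after thinning every cell to 25 transcripts (pale), for the control (blue) and KO (orange) sections. Right, share of each rule gene in the 4 genes' counts (vertical axis, %) in thinned neural mural-rule cells; lines are 95% intervals, binomial on the left and Poisson on the right, and the thinned shares of cells lie closer together than those as deposited.

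The channel genes Kcnj8 and Abcc9 are rule genes, so their levels in these cells, thinned or not, depend in part on which cells the rule admits and are given as a description. In neural mural cells Kcnj8 was lower in the KO by a log2 ratio of KO over control of -1.25 (-1.51 to -0.99), and Abcc9 higher by 0.48 (0.26 to 0.71). After thinning, Kcnj8 made up 29.2% (23.6 to 35.8%) of the 4 genes' counts in control and 17.6% (15.1 to 20.4%) in KO neural mural cells, and Abcc9 36.2% (29.9 to 43.4%) and 47.8% (43.6 to 52.2%). Among members called at full depth and then thinned to 25 transcripts, Kcnj8 was seen in 51.5% of control and 30.1% of KO cells, whereas Abcc9 was seen in 59.8% and 60.1%. Without thinning, Abcc9 alone had the highest count in 19.7% of control and 65.3% of KO neural mural cells, and Kcnj8 in 20.2% and 2.75%. Mesenchyme-rich mural-rule cells had a Kcnj8 ratio of -1.25 (-1.44 to -1.05) and an Abcc9 ratio of 0.12 (-0.02 to 0.26). In other neural cells Kcnj8 had a log2 ratio of -0.97 and Abcc9 of 0.29, but these are the cells that the rule left over. Among all decoded molecules of the sections, inside and outside cells, the ratios were -0.51 (-0.60 to -0.43) and 0.69 (0.63 to 0.75). Mural-rule cells held 26.6% of these Kcnj8 molecules in the control and 33.4% in the KO, and 24.1% and 36.2% of those of Abcc9. In imaging plane 0 alone the ratios over all molecules were -0.23 and 0.55. Acta2 was lower in KO neural mural cells by -0.69 (-1.03 to -0.34), but the log2 ratio of its share of the 4 genes, -0.44, became 0.40 (-0.60 to 1.52) when Acta2 was left out of the rule and 0.34 (-0.27 to 0.99) when 3 genes were required, so that its direction was lost. Over all molecules Acta2 had a ratio of 0.15 (0.09 to 0.21). Pdgfrb differed less, by -0.29 (-0.54 to -0.04) in neural mural cells and 0.06 (0.00 to 0.12) over all molecules.

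Several of the genes higher in neural mural cells than in other neural cells, some of them also high in endothelial-rule cells, had ratios within counting error of 0. In neural mural cells S1pr3 had a log2 ratio of KO over control of 0.04 (-0.36 to 0.45), Igf2 of -0.02 (-0.15 to 0.11), Ccdc3 of -0.26 (-0.72 to 0.21), Cobll1 of -0.05 (-0.44 to 0.36) and Aplnr of -0.22 (-0.86 to 0.47). Their intervals all spanned 0. Igf2 is imprinted, and its ratio in other neural cells was -0.76. Nnat and Peg10, also imprinted, had ratios of -0.06 and -0.06. Cspg4 was lower by -0.92 (-1.20 to -0.63), with -1.17 in other neural cells, and Igfbp5 by -1.38 (-2.28 to -0.41), with -1.11. Col15a1, a basement membrane collagen, was lower by -1.34 (-2.03 to -0.63) on 38 and 168 counts, while other neural cells had a ratio of -0.07. Klf4 was lower by -1.02 (-1.63 to -0.39), with -0.80 in other cells.

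Over whole sections, 38 of 243 genes were more than 2-fold higher in KO than in control mural-rule cells (15.6%) and 4 more than 2-fold lower (1.65%). In the other cells 16 of these 243 genes passed 2-fold in either direction, and 7 passed the same way in both kinds of cells. Within neural tissue 37 were more than 2-fold higher in KO than in control neural mural cells (15.2%) and 22 more than 2-fold lower (9.05%), 59 in either direction (24.3%). These counts leave out Cxcr4, which had no control count and no ratio, and with it 60 passed. With the further condition that the counting interval excluded 0, which was set after the data had been seen, 14 (5.76%) and 11 (4.53%) remained. In other neural cells 18 of the 243 genes passed 2-fold in either direction, and 12 passed the same way in mural and other cells. The median log2 ratio was 0.13 in mural cells and -0.04 in other neural cells over the same genes. Cd24a, a surface glycoprotein of young neurons, had a ratio of 3.003 (2.27 to 3.83) on 18 and 1619 counts, with 2.04 in other neural cells. Epha3, an ephrin receptor, had 2.76 (1.24 to 4.80), with 1.87 in other cells, and Dlx1, a transcription factor of interneurons, 2.11 (0.70 to 3.92), with 0.73. Luzp2 and Sp8 both stood at 2.05 (-0.11 to 5.39) on 2 control counts each. The lowest were Cd74, an immune gene, at -2.85 (-4.65 to -0.98), Lmx1a at -2.30 (-4.15 to -0.28), Spp2 at -1.99 (-3.89 to 0.14), Kcnh1 at -1.90 (-3.64 to 0.02) and Bcan, a proteoglycan of glia, at -1.84 (-3.45 to -0.07), all on 6 to 9 control counts. Cxcr4, the receptor of Cxcl12, had no count among the 9014 transcripts of control neural mural cells and 99 among 101156 in the KO. With the control set at 3 counts, or 333 CPM, the KO level of 979 CPM was 2.94-fold higher. The 3 counts are a chosen floor, and this fold does not cover counting error.

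In mesenchyme-rich tissue 38 genes were more than 2-fold higher in KO mural-rule cells (15.6%) and 5 more than 2-fold lower (2.06%). With the counting interval off 0 as a further condition, 30 (12.3%) and 5 (2.06%) remained. The median log2 ratio over the same genes was 0.27 in mural-rule cells and 0.25 in the surrounding cells. In the surrounding cells 23 of these genes passed 2-fold in either direction. Efemp1 had a log2 ratio of 1.28 (0.92 to 1.66), against 0.16 in the surrounding cells, and the neurofilament gene Nefm 1.39 (0.90 to 1.92), against 0.02. The highest ratio, 3.62 (1.57 to 6.85) for Irs4, rested on 2 control counts, and Ptprk, Barx2, Ddc and Cdh12, with ratios from 1.96 to 2.43, on 4 to 6. Hdc, encoding the histamine-forming enzyme of mast cells, was lower by -1.30 (-1.87 to -0.72), although the surrounding cells had 0.49. Adra1d, an adrenergic receptor of smooth muscle, was lower by -1.17 (-2.15 to -0.12), Sim1 by -1.07 (-1.65 to -0.47) and Sox9, of cartilage and glia, by -1.02 (-1.44 to -0.59). The rule gene Pdgfrb was lower by -0.75 (-0.90 to -0.59), a level that depends on which cells the rule admits at each depth, and its ratio over all decoded molecules was 0.06. Muscle-gene cells made up 8.16% of the control and 13.4% of the KO cells here, and without them Pdgfrb was lower by -0.68 and Kcnj8 by -1.25, and Acta2 was higher by 0.31 in place of 0.30.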

How the data were processed

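For each section the authors deposited a table of counts per segmented cell and panel gene, cell metadata and a list of decoded molecules. Decoding and segmentation ran on the MERSCOPE instrument. The segmentation model and the genome build are not given in the sources used here. Summing the molecule list per cell gave the deposited counts with a difference of 0. The deposited DAPI signal per cell was used only as ratios of medians. Molecules of all 7 imaging planes were counted, 50 blank codes were left out and 500 genes kept.

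The rule, gene lists and named genes were chosen with earlier results of these data known. Named were the 7 rule genes, the 15 genes highest by fold over other cells, the 5 highest and 5 lowest ratios of KO over control, and the panel genes of the mural, vessel signalling, vasoactive, fibroblast and endothelial lists. A few others were named after their values were seen. Tissue was called in bins of 25 µm smoothed with an SD of 50 µm. Counts were summed over cells of a section and divided by their panel transcripts to give CPM, without a pseudocount. Genes were compared where their mean CPM in mural-rule cells reached the panel median, the rule genes left out. Sums have exact Poisson and shares exact binomial (Clopper-Pearson) intervals, and a ratio's interval runs from the lower end over the upper to the upper over the lower. With 1 section per group no test was made. Thinning drew 25 transcripts per cell without replacement. The ratios of KO over control and the rule were tested on simulated counts, and the thinning on cells of the control section. The calls of tissue, the distances and the counts of nearby molecules were not tested in this way. Alternatives changed each limit of the rule, the fold, the distance, the smoothing, the depth and the imaging planes. Python 3.11.15, numpy 2.4.6, pandas 2.3.3, scipy 1.17.1 and matplotlib 3.10.9 were used.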

Additional observations from a re-analysis of the deposited data

Results flagged for a closer look

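Among 73 named genes, 2 had log2 ratios of KO over control that ran in opposite directions in the mural-rule cells of neural and of mesenchyme-rich tissue, each with a counting interval off 0. Some of the named genes were chosen by their ratios in these data. Such genes were not counted over the whole panel, so no background share stands beside the 2. Acta2 stood at -0.69 in neural and 0.30 in mesenchyme-rich tissue. The other cells had -0.66 and 0.06. Acta2 is a rule gene, and the log2 ratio of its share of the 4 rule genes had intervals spanning 0 in neural tissue without Acta2 in the rule (0.40, -0.60 to 1.52) and with 3 genes (0.34, -0.27 to 0.99), and in mesenchyme-rich tissue after thinning (0.18, -0.16 to 0.53). Osr1, a transcription factor gene of fibroblasts, stood at -0.99 (-1.90 to -0.01) on 20 control and 113 KO counts in neural tissue and at 0.32 (0.08 to 0.57) in mesenchyme-rich tissue. The other cells had -0.63 and -0.11. The neural direction of both genes was also that of the other cells, but for Acta2 these are the cells that the rule left over. Over all decoded molecules of the sections Acta2 had a ratio of 0.15 (0.09 to 0.21). With 1 section per group the difference between the tissues was not tested for either gene.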

How the results depend on the processing

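With 1 section per genotype, no section could be left out and no SD set. No paired analysis was possible because each group holds 1 section. The share of mural-rule cells (log2 KO over control 0.95) became 1.47 with a minimum of 10 transcripts, -0.17 with 50 (-0.36 to 0.03), 0.50 with a sum of at least 2 counts, 1.89 with 5, 0.63 with 5% of transcripts, 1.24 with 3 genes, 1.15 without Pdgfrb in the rule, 0.0755 (-0.22 to 0.38) after thinning and 0.13 (-0.21 to 0.49) in imaging plane 0. The Acta2 share of the rule genes in neural tissue (log2 KO over control -0.44) became -0.86 with a minimum of 50 transcripts, -0.97 with 5 counts, -1.21 in plane 0, and 0.34 (-0.27 to 0.99) with 3 genes and 0.40 (-0.60 to 1.52) without Acta2 in the rule, both with intervals that span 0. So did -0.31 (-0.64 to 0.02) with 2 counts, -0.32 (-0.67 to 0.03) with 5% and -0.42 (-1.35 to 0.55) after thinning. In mesenchyme-rich tissue (0.46) it became 0.32 with 5 counts, 0.70 with 3 genes, 0.78 without Acta2 and 0.18 (-0.16 to 0.53, spanning 0) after thinning. The share of cells in mesenchyme-rich tissue (73.7% control, 71.4% KO) became, in the control, 83.3% with a minimum of 50 transcripts, 79.2% with 5 counts, 69.8% with 5%, 68.8% without the endothelial condition, 66.9% without Acta2, 65.0% after thinning, 87.7% in plane 0 and 67.8% with smoothing over 100 µm. In the KO it became 65.1% with 5%, 68.7% with 3 genes, 63.4% without the endothelial condition, 60.5% without Acta2, 74.2% without Pdgfrb, 57.0% after thinning, 78.1% in plane 0, 65.0% with smoothing over 100 µm and 68.3% without the cells rich in muscle genes, an alternative chosen after seeing the data. The share of neural mural cells near an endothelial cell (log2 over other cells, 2.81 control, 2.29 KO) became, in the control, 1.71 with a minimum of 50 transcripts, 1.85 with 3 genes (-1.36 to 3.84, spanning 0), 3.26 in plane 0 (-0.17 to 5.32, spanning 0), 3.22 within 15 µm and 1.98 within 30 µm, and in the KO 2.62 with 3 genes, 2.63 after thinning, 2.12 in plane 0, 2.92 within 15 µm and 1.40 within 30 µm. The fibroblast share in neural tissue (2.37 control, 2.23 KO) became in the control 2.65 with 5 counts, 2.01 without Pdgfrb and 1.81 after thinning, and in the KO 2.13 with 5%, 2.02 with 3 genes, 1.80 without Acta2, 1.998 without Pdgfrb and 1.605 after thinning. The endothelial share was that of Aplnr alone (3.30 control, 3.95 KO). Its comparison, unlike the fold of Aplnr given in the Results, leaves the endothelial-rule cells out of the other cells. In the control it became 3.98 without the endothelial condition and 1.73 in plane 0 (-3.93 to 4.59, spanning 0). In the KO it became 3.27 with 3 genes, 5.31 without the endothelial condition, 3.29 after thinning and 3.06 in plane 0. Genes past 2-fold over other cells in both sections (48) numbered 27 in plane 0, 23 at 3-fold and, chosen after seeing the data, 12 in mesenchyme-rich tissue. Genes past 2-fold between KO and control (42) numbered 65 with 5 counts, 68 after thinning, 76 in plane 0, 113 over all panel genes and 104 at 1.5-fold. The cause of these moves was not tested. In the control 247 of 715 cells, and in the KO 188 of 2540, pass with exactly 3 counts.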
